A study of Mus musculus with 42 samples.

Results

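The oxidative phosphorylation subunit genes are the nuclear genes for the proteins of the respiratory chain and the ATP synthase. They were chosen by name alone, as the protein coding genes whose symbol starts with Ndufa, Ndufb, Ndufc, Ndufs, Ndufv, Uqcr, Cox4 to Cox8 or Atp5, together with Sdha, Sdhb, Sdhc, Sdhd, Cycs and Cyc1. Assembly factors of the Ndufaf series and pseudogenes were left out. The rule found 83 of the 14296 genes in the files. It names 87 genes in the annotation, and the remaining 4, Cox6a2, Cox7b2, Cox8b and Cox8c, were not analysed here. Of the 83 genes, 36 belong to complex I, 4 to complex II, 9 to complex III and 16 to complex IV, 1 encodes cytochrome c, and 17 carry the names of complex V, the ATP synthase. Polyadenylated RNA was sequenced by strand, with read pairs of 100 bases, from W9.5 mouse embryonic stem cells of the 129X1/SvJ strain background. The cells were withdrawn from leukaemia inhibitory factor and left to differentiate, without direction to a lineage, as embryoid bodies, which are free-floating aggregates that form derivatives of the germ layers. Samples were taken every 6 h from 0 to 120 h, at 21 time points, from a pair of duplicate courses called A and B, which gave 42 libraries with 2 at each time point. No genotype or drug differed between libraries, so time of differentiation was the only variable. All libraries came from 1 cell line, and the 0 h libraries of undifferentiated cells served as the starting level.

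Oxidative phosphorylation makes most of the ATP of a resting cell. Complex I takes electrons from NADH and complex II takes them from succinate. Both pass them through ubiquinone to complex III, cytochrome c carries them on to complex IV, and oxygen accepts them there. Complexes I, III and IV pump protons out of the mitochondrial matrix, and complex V lets the protons return and makes ATP. A few subunits of complexes I, III, IV and V are encoded in mitochondrial DNA and all others by nuclear genes, so that an assembled complex needs the products of both genomes. Mouse embryonic stem cells use glycolysis strongly as well as respiration, and the balance of these pathways is known to shift as cells leave pluripotency.

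The reads on the 14296 genes could be recovered from the deposited values and ranged from 10120972 to 51652434 per library, with a median of 29692082. Values are log2 CPM, the log of read counts scaled to a common library size, on which a difference of 1 is a 2-fold change. A level of 3 reads was between 0.0572 and 0.316 CPM depending on the library. Duplicates differed with a median SD of 0.19 log2 units over the oxidative phosphorylation genes and 0.179 over all genes. The 6 embryonic stem cell markers summed to 3404 and 3669 CPM in replicates A and B at 0 h and to 1582 and 1532 CPM at 120 h. Markers of neuroectoderm, 3 genes, went from 17.8 and 14.4 CPM at 0 h to 201 and 186 CPM at 120 h, and the 4 measured markers of endoderm from 3.9 and 4.98 to 41 and 42 CPM. Fibroblast markers, of which 6 were measured, summed to 24.3 and 28.1 CPM at 0 h and 102 and 91.7 CPM at 120 h. Streak and mesoderm markers, 4 measured, went from 14.8 and 14.1 to 70.7 and 60.1 CPM, those of trophoblast, 4 measured, from 15.8 and 14.4 to 90 and 93.7 CPM, and those of muscle, 3 measured, from 4.26 and 4.83 to 7.55 and 7.04 CPM. The embryoid bodies were therefore mixtures of cells whose make-up moved with time, and in bulk samples fewer cells of a type and less RNA per cell cannot be told apart. The part of this mixture in the results was not tested.

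A single library has to be named before the results. In replicate B at 42 h, 81 of the 83 genes were higher than in replicate A, with a median difference of 0.55 log2 units, whereas the median over all genes was -0.01. The difference at 42 h was 0.59 in the 19 oxidative phosphorylation genes with under 1000 exon bases and 0.51 in the longer ones. Short genes of every kind, 623 under 1000 exon bases, also had a positive median there, of 0.3. Replicate B at 66 h showed the same direction with a median of 0.29 over the oxidative phosphorylation genes, 77 of which were higher than in replicate A. Over all genes under 1000 bases it was 0.29. Replicate B was also above replicate A at most other times. At 72 h the group's median relative to 0 h was -0.40 in A and -0.11 in B. It was -0.16 and 0.05 at 30 h, and -0.32 and -0.12 at 114 h. Only at 18 h (0.03 and -0.03) and 90 h (-0.08 and -0.17) was replicate A the higher. The genes for cytosolic ribosomal proteins stood 0.15 above their 0 h level in replicate A and 0.82 above it in replicate B at 42 h. The part of transcript length in these values was not tested.

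Most of these genes were expressed above the median gene, over a wide span of levels. Per kilobase of exon, their median over the course was 5.56 on the log2 CPM scale against 2.19 for all annotated genes, and 75 of the 83 were above the median of all genes in log2 CPM, which was 4.33 against 6.28. Their summed share of a library's reads was 0.855% to 1.38%, with a median of 1.01%. The highest levels per length belonged to Atp5b, the catalytic beta subunit of the ATP synthase, at 388 CPM per kb, and to Atp5a1, its alpha subunit, at 326 CPM per kb. Cox4i1, the common form of a nuclear subunit of complex IV, followed at 308 CPM per kb, and Cox6a1 and Cox6b1, from the same complex, at 197 and 192 CPM per kb. The 5 lowest levels per length were those of Cox4i2 (0.66 CPM per kb), Ndufb2 (0.902), Atp5s (2.46), Cox7a1 (4.76) and Ndufa4l2 (5.66). Cox4i2, Cox7a1 and Ndufa4l2 are alternative forms of subunits that have a common form elsewhere in the genome. The value of Ndufb2, an accessory subunit of complex I, rests on 5628 annotated exon bases, far more than the median of 1675 for these genes, so its level per length depends on how much of that annotation is transcribed. Annotated exons of 5 of the 83 genes share bases with another gene on the same strand and those of 26 with a gene on the opposite strand, and 15 pseudogenes are named after members. Reads of such copies could have been split or lost in counting.

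Over the 120 h the genes moved little and largely together. The distance of the lowest from the highest time point, taken on the mean of the duplicates, was measured for each gene. A range of at least 1 log2 unit, or 2-fold, was found in 32 of the 83 (38.6%) and in 75.2% of all genes. Restricted to genes that averaged 4 log2 CPM or more, the shares were 35.5% of the 76 members and 59.3% of 7829 genes, and the median ranges 0.90 and 1.10 log2 units. The narrowest ranges were those of Sdha (0.45), the flavoprotein of complex II, Uqcrc2 (0.52), a core protein of complex III, Atp5o (0.55), the stalk subunit of the synthase that confers oligomycin sensitivity, Ndufab1 (0.55), the mitochondrial acyl carrier protein, and Ndufa10 (0.57), an accessory subunit of complex I. At the other end, Ndufa4l2 ranged over 5.14 log2 units, Cox4i2 over 4.38, Atp5s over 2.82, Cox6b2 over 2.32 and Cox7a1 over 2.25. The next widest, Cox7c, ranged over 1.90.

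A median course was taken over the members other than Cox6b2, Atp5s, Cox4i2, Ndufa4l2 and Cox7a1. Each of the 83 genes was correlated with it over the 21 time points. The correlation had a median of 0.70 and was above 0.5 for 71 genes. This value is a description, since most genes are part of the median and the points share libraries. Cox6b2 (-0.36), Atp5s (-0.03), Cox4i2 (-0.02), Ndufa4l2 (-0.02) and Cox7a1 (0.22) were the 5 widest-ranging genes and did not follow the median course. They had been left out of that course, so this contrast is partly built in. Ndufv3 (0.06) and Ndufb2 (0.12) also had low correlations, although they are part of that course. Relative to 0 h, the median of the 83 genes in replicates A and B was -0.35 and -0.34 at 54 h, -0.10 and 0.08 at 96 h, -0.02 and 0.06 at 102 h, and -0.47 and -0.46 at 120 h. The time of the highest mean was 42 h for 50 genes, which carries the high library of replicate B, and the time of the lowest mean was 120 h for 33 genes and 54 h for 16.

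**Figure D1:**
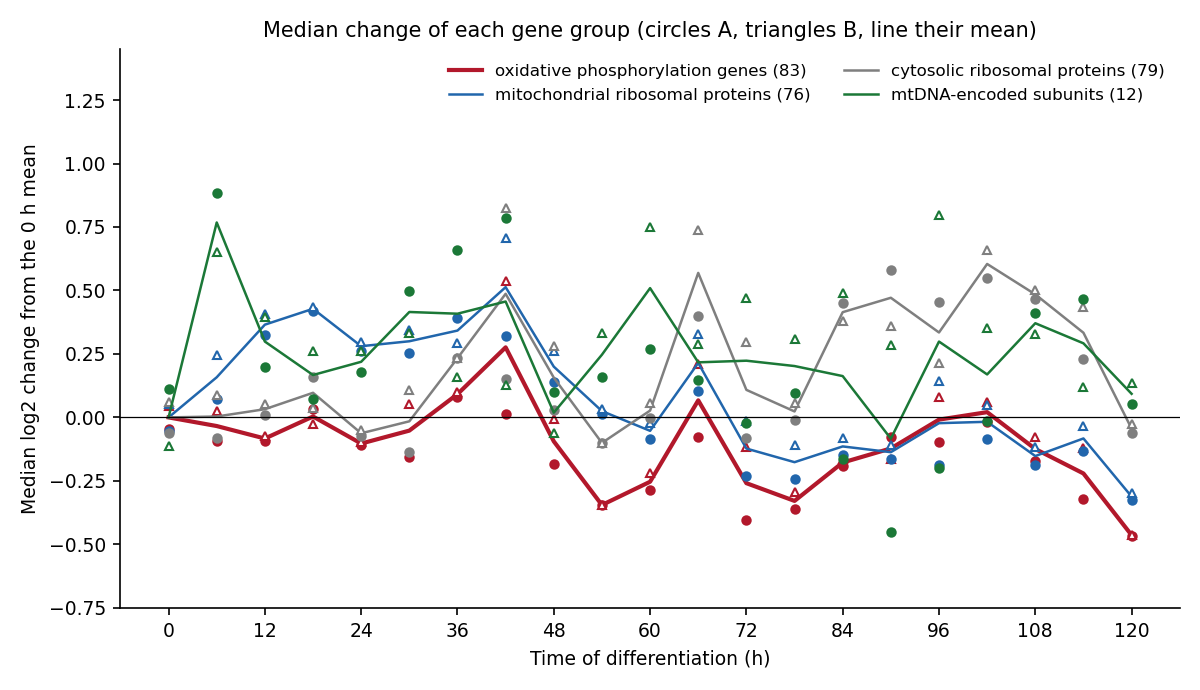
Median log2 change from the 0 h mean (vertical axis) against time of differentiation in hours for the 83 oxidative phosphorylation genes and the comparison groups, with circles for replicate A, triangles for replicate B and a line through their mean. The oxidative phosphorylation genes stood at -0.47 and -0.46 at 120 h, and replicate B at 42 h lies above replicate A.

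Differences between time points were tested with limma on the log2 CPM of all 14296 genes in 1 fit over the 42 libraries, with p-values adjusted by Benjamini-Hochberg over all genes. A gene was called at an adjusted p under 0.0001, the threshold the study used, and counts at 0.05 are given beside it. Over the whole course, the moderated F test of limma called 25 of the 83 (30.1%) against 74.6% of all genes for any change among the time points. At 0.05 it called 70 (84.3%) against 94.2%. Among genes that averaged 4 log2 CPM or more the shares were 27.6% of members and 74.2% of genes. The count was higher without replicate A at 42 h, which left only the high library of replicate B at that time.

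**Figure D2:**
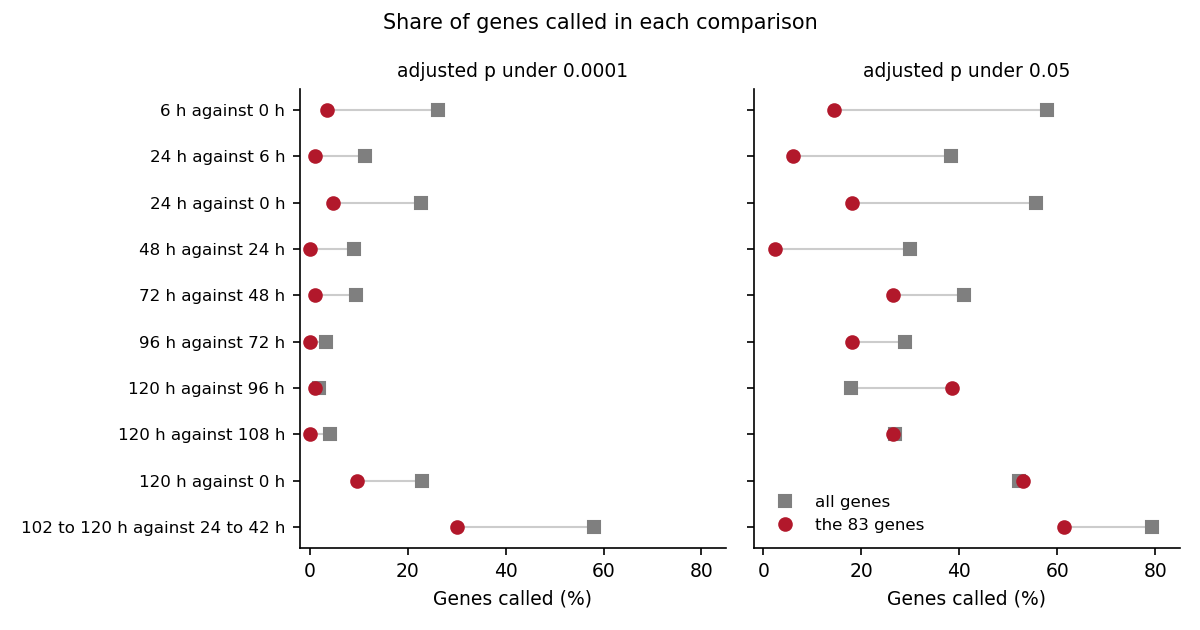
Share of genes called in each comparison (horizontal axis, percent) for the oxidative phosphorylation genes and for all genes, at an adjusted p under 0.0001 and under 0.05. The members' share lay below that of all genes in the early comparisons, with 3.61% against 26.3% from 0 to 6 h, and above it at 0.05 from 96 to 120 h, with 38.6% against 17.8%.

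In the first 24 h, in which the cells leave the undifferentiated state, few of these genes were called. Those called were for the most part alternative isoforms. From 0 to 6 h, 3 of 83 fell (3.61% against 14.5% of all genes) and 0 rose (11.8% of all genes), which together is set against 26.3% of all genes called. At 0.05 there were 12 (14.5%) against 58% of all genes. Most of these 12 were other members, since only 4 of the 83 are alternative isoforms. At an unadjusted p under 0.05, 2 members were higher and 11 lower. The median change was -0.03 log2 units for the 83 and -0.05 for all genes. Atp5s stood at 3.85 and 3.82 log2 CPM at 0 h and at 0.98 and 1.05 at 6 h, with no overlap, and fell by 2.82 ± 0.25 (SE, adjusted p = 3.73e-10). It carries the name of a factor of the ATP synthase, also known as coupling factor B, and it is the only gene of the group whose mean was lowest at this time. Cox6b2, the testis form of a complex IV subunit, went from 6.32 and 6.44 to 5.09 and 5.12 log2 CPM and fell by 1.28 ± 0.18 (adjusted p = 8.54e-07). Ndufa4l2 went from 5.62 and 5.64 to 4.23 and 4.36 log2 CPM and fell by 1.34 ± 0.25 (adjusted p = 4.09e-05). That last call was lost when any 1 of the libraries compared was left out, and also with each library recentred on its median gene. Over the alternatives its change lay between -1.41 and -1.22.

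From 6 to 24 h only Ndufa4l2 was called, lower, to 1.52 and 1.48 log2 CPM (1.2% of members against 11.4% of all genes; at 0.05, 5 members, 6.02%, against 38.4%). It fell by 2.79 ± 0.25 (adjusted p = 7.05e-10). Between 0 and 24 h, 4 genes fell (4.82% against 12.8% of all genes) and 0 rose (9.9%), or 22.7% of all genes in either direction. At 0.05, 15 members (18.1%) stood against 55.6%. At an unadjusted p under 0.05, 2 were higher and 14 lower. The 4 were Ndufa4l2, which fell by 4.13 (adjusted p = 4.34e-13), Cox6b2, by 2.23 (1.07e-10), Cox7a1, by 1.61 ± 0.28 (2.18e-05), and Atp5s, by 1.56 (7.90e-06). Cox7a1, the form of a complex IV subunit found in heart and skeletal muscle, went from 2.46 and 2.59 log2 CPM, or 129 and 145 reads, to 0.98 and 0.86. Without any 1 of the 4 libraries compared, Cox7a1 and Atp5s were no longer called and 2 remained, Ndufa4l2 and Cox6b2. The median change of the 83 over these 24 h was -0.12 and that of all genes -0.04; with each library recentred on its median gene these were 0.02 and 0.10, so the sign of the small median depends on the scaling.

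In the middle of the course few members were called between days, although their median moved. Over the 6 h steps it changed by -0.36 and then -0.24 in the pair of steps between 42 and 54 h, and by 0.33 and then -0.35 in the pair between 60 and 72 h, which include the high libraries of replicate B at 42 and 66 h. In replicates A and B the median relative to 0 h was 0.08 and 0.10 at 36 h and -0.35 and -0.34 at 54 h. From 24 to 48 h limma called 0 members (8.97% of all genes), with 4 at an unadjusted p under 0.05 (4.82% against 38.7% of all genes) and 2 at an adjusted p under 0.05 (2.41% against 29.9%). From 48 to 72 h only Ndufa4l2 was called, higher (1.2% of members against 9.38% of all genes). It went from 1.92 and 1.96 to 3.66 and 3.87 log2 CPM, by 1.82 (adjusted p = 1.73e-06). Without replicate B at 72 h this call was lost and 0 remained, whereas 22 members (26.5% against 40.9%) were under 0.05. From 72 to 96 h limma again called 0 at 0.0001 (3.39% of all genes), with 28 members at an unadjusted p under 0.05, 27 of them higher, and 15 at an adjusted p under 0.05, all 15 higher (18.1% against 28.9%). The median change was 0.25 for the members and 0.01 for all genes over that day.

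The last day brought the broadest movement of the group, of a size that the stricter threshold did not catch. From 96 to 120 h, 80 of 83 genes were lower, with a median of -0.46 log2 units, when the median of all genes was 0.01 and 6966 of 14296 were lower. At an adjusted p under 0.0001 only Ndufa4l2 was called (1.2% against 1.94% of all genes). At 0.05, 31 members fell (37.3%) against 8.28% of all genes, and 32 (38.6%) against 17.8% moved in either direction. At an unadjusted p under 0.05, 57 were lower and 1 higher, which is 69.9% against 31.3% of all genes. The count of 32 under 0.05 rests on few libraries. It was 7 without replicate A at 120 h, 15 without replicate B at 120 h, 20 without replicate B at 96 h and 42 without replicate A at 96 h. The duplicates at 96 h also differed from each other in single genes, with Cox4i2 at 0.08 and -2.26 log2 CPM and Atp5s at 3.65 and 2.35. The cytosolic ribosomal protein genes had a median change of -0.39 over the same day, and 78 of 79 were lower, and the part of what these groups share in the result was not tested. From 108 to 120 h limma called 0 (4.12% of all genes) at 0.0001. At 0.05, 20 were lower (24.1% against 12.8%) and 22 changed in all (26.5% against 26.9%), with 38 lower and 2 higher at an unadjusted p under 0.05 and a median of -0.29.

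Set against the undifferentiated cells, the 120 h libraries had a negative median change in each of the 5 complexes, while cytochrome c was among 3 genes with a positive change. Of the 83, 80 were lower, with a median of -0.46 log2 units against -0.02 for all genes, of which 7354 were lower. At 0.0001, 8 fell (9.64% against 10.1% of all genes) and 0 rose (12.9%; 1 was higher at an unadjusted p under 0.05), which is set against 23% of all genes in either direction, so the share of large, precise changes was below that of genes at large and the share of falls near it. At 0.05, 43 fell (51.8%) against 25.6% of all genes, and 44 (53%) changed against 52.2%. The counts under 0.05 without 1 library were 28 without replicate B at 0 h, 33 and 35 without replicates A and B at 120 h, and 40 without replicate A at 0 h. The comparisons with 0, 96 and 108 h share the 120 h libraries, so they are not independent of one another. With each library recentred on its median gene the median was -0.48.

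Complex I, the entry point for electrons from NADH, had a median of -0.49 at 120 h against 0 h, with 3 of 36 called. All 3 belong to the core subunits that carry its electron path, of which 7 are nuclear, with a median of -0.68. Ndufs1, the largest iron-sulfur subunit, stood at 7.37 and 7.44 log2 CPM at 0 h and at 6.69 and 6.64 at 120 h, without overlap, and fell by 0.74 ± 0.09 (adjusted p = 1.02e-07). Ndufv1, which binds NADH, went from 6.64 and 6.82 to 6.00 and 5.97 and fell by 0.75 ± 0.12 (adjusted p = 1.29e-05). The 29 accessory subunits, which surround the core, had a median of -0.42. No test compared the core with the accessory subunits. Exons of Ndufs1 share 489 bases with the antisense gene Ino80dos, and whether reads were counted by strand was not given in the sources used here.

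Complex II oxidises succinate and is also an enzyme of the citric acid cycle. All 4 of its subunits are nuclear. Sdhc, which anchors the enzyme in the membrane, stood at 6.45 and 6.72 log2 CPM at 0 h, 6.05 and 6.19 at 6 h, 5.85 and 5.83 at 24 h and 5.69 and 5.56 at 120 h. It fell by 0.96 ± 0.18 (adjusted p = 4.33e-05), with most of the drop in the first day. Sdha, the flavoprotein, was at 8.11 and 8.15 at 0 h and 7.90 and 7.75 at 120 h. The iron-sulfur subunit Sdhb was at 6.51 and 6.66, then 6.22 and 6.37, and the other anchor, Sdhd, at 6.57 and 6.74, then 6.41 and 6.19. Sdha, Sdhb and Sdhd did not pass 0.0001 between these times, and whether Sdhc differed from them was not tested.

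In complex III, which hands electrons from ubiquinol to cytochrome c, the median at 120 h against 0 h was -0.44 and 1 of 9 was called. That gene was Uqcrc1, a core protein of the complex, at 8.39 and 8.48 log2 CPM at 0 h, 8.03 and 7.95 at 24 h and 7.53 and 7.58 at 120 h. It fell by 0.88 ± 0.10 (adjusted p = 4.66e-08), and its duplicates did not overlap between any of these times. Complex IV had the lowest median of the complexes, -0.58, with 2 of 16 called, Ndufa4l2 and Cox7a1. Ndufa4l2 fell by 4.02 (adjusted p = 1.30e-13) to 1.58 and 1.64 log2 CPM, and Cox7a1 by 1.65 (1.39e-05) to 0.90 and 0.85. Complex V had a median of -0.36 and 1 call in 17. Atp5a1, the alpha subunit, went from 10.18 and 10.25 to 9.75 and 9.69 log2 CPM and fell by 0.49 ± 0.09 (adjusted p = 3.29e-05). Without 1 of the libraries compared, 4 or 5 of the 8 members remained called, and Atp5a1, Cox7a1, Ndufv1 and Sdhc were those that could be lost, while Ndufa4l2, Ndufs1 and Uqcrc1 were called each time.

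Cytochrome c, encoded by Cycs, is the soluble carrier between complexes III and IV and also a trigger of apoptosis when released. Its correlation with the median course was 0.51. Cycs stood at 6.12 and 6.07 log2 CPM at 0 h, 6.72 and 6.81 at 6 h, 6.96 and 7.14 at 12 h, 6.93 and 6.89 at 24 h, 7.04 and 7.38 at 42 h, where it peaked, and 6.46 and 6.71 at 120 h, above its 0 h values in both replicates each time. The differences from 0 h were 0.67 at 6 h (adjusted p = 0.0039), 0.81 at 24 h (0.0007) and 0.49 at 120 h (0.0337), so they passed 0.05 but not 0.0001. Cyct, the testis cytochrome c, which is not one of the 83, was near 1 log2 CPM, at 1.18 and 1.46 at 0 h and 0.62 and 0.51 at 120 h.

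Averages over several time points are less exposed to a single library. The mean of 102 to 120 h was compared with that of 24 to 42 h, which asks how late embryoid bodies differed from early ones. Here 24 of 83 fell (28.9% against 27.5% of all genes) and 1 rose (1.2% against 30.6%), in all 25 (30.1%) against 58% of all genes. At 0.05, 51 were called (61.4% against 79.3%). The median change was -0.22 for the members and 0.00 for all genes, and 64 of 83 were lower. The share of falls was thus close to that of all genes, and rises were few. With the early mean taken over 24 to 36 h, which leaves out the high library at 42 h and was chosen after seeing the data, 16 were called. A late mean of 102 to 114 h, which leaves out the 120 h libraries, was also chosen after seeing the data. It lost calls as well. Recentring each library on its median gene moved the median of all genes to -0.16 and that of the members to -0.38.

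**Figure D3:**
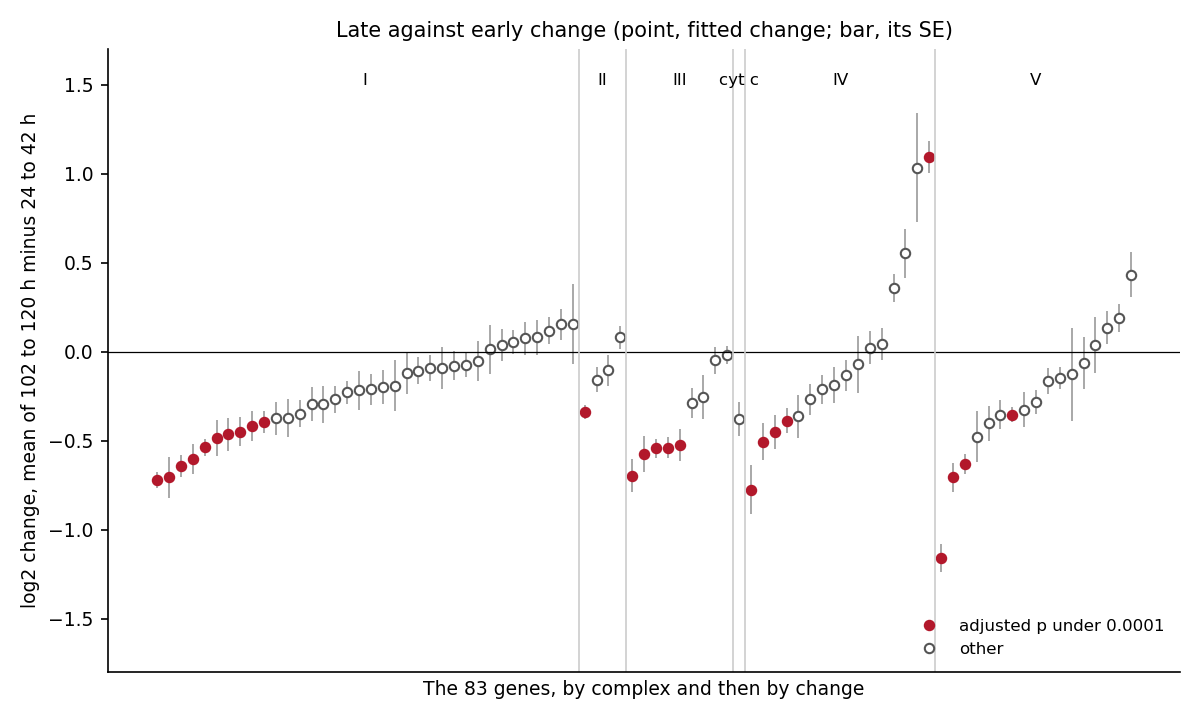
Change of each of the 83 genes on the log2 scale (vertical axis), mean of 102 to 120 h minus mean of 24 to 42 h, ordered by complex and then by change, with bars of 1 SE. Atp5g1 lies lowest at -1.16, Cox6b2 is the only gene that rose past the threshold, at 1.10, and 64 genes lie below 0.

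The falls between these periods were spread over all complexes. In complex I, 10 of 36 fell, among them 5 of the 7 core subunits, including Ndufs1 at -0.72 ± 0.05 (SE, adjusted p = 3.50e-14), Ndufv1 at -0.64, Ndufs8 at -0.45 and Ndufs3 at -0.42, and 5 of the 29 accessory ones, with Ndufa5 at -0.71, Ndufb10 at -0.60, Ndufb2 at -0.49, Ndufb3 at -0.46 and Ndufa10 at -0.39. In complex II, Sdha fell by 0.34. Complex III had the lowest median, -0.52, and 5 of 9 fell, namely Uqcrq (-0.70), Uqcr10 (-0.58), Uqcrc1 (-0.54), Uqcr11 (-0.52) and the cytochrome c1 gene Cyc1 (-0.54). In complex IV, 4 of 16 fell, namely Cox7c (-0.78 ± 0.14, adjusted p = 9.93e-06), Cox6c (-0.51), Cox8a (-0.45) and Cox7b (-0.39), all small subunits around the catalytic core, and Cox6b2 rose. In complex V, 4 of 17 fell, with Atp5b at -0.63, Atp5a1 at -0.35 and Atp5l, subunit g of the membrane part, at -0.71. Not all of these calls were stable. With either shorter mean, 24 to 36 h or 102 to 114 h, Ndufs8, Ndufs3, Ndufb2, Ndufb3, Uqcr10, Uqcr11, Cox7c, Cox6c, Cox8a and Cox7b were no longer called. Ndufs3, Ndufb3 and Cox8a were lost under 18 of 27 alternatives, Ndufb2 under 18 of 26 and Cox6c under 17 of 27. The other falls named here were kept under every alternative. Atp5b, the catalytic subunit, was at 10.79 and 10.89 log2 CPM at 0 h, 11.07 and 11.09 at 6 h and 10.28 and 10.29 at 120 h, above its 0 h level in both replicates at first and below it at the end.

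The largest fall was that of Atp5g1. It is 1 of 3 genes, with Atp5g2 and Atp5g3, that encode the same mature subunit c, the proton-carrying ring of the synthase. Atp5g1 stood at 6.44 and 6.65 log2 CPM at 0 h, 7.14 and 7.11 at 12 h, 7.11 and 6.92 at 24 h, 5.80 and 5.88 at 108 h and 6.04 and 5.93 at 120 h. Late against early, it fell by 1.16 ± 0.08 (SE, adjusted p = 1.17e-13). Neither Atp5g2 nor Atp5g3 was called in any of these comparisons. Atp5g2 was at 6.40 and 6.67 log2 CPM at 0 h and 6.44 and 6.41 at 120 h, and Atp5g3 at 6.94 and 7.12, then 7.02 and 6.81. As a share of the CPM per kb of the 3 genes, Atp5g1 was 14.2% and 14.1% at 0 h, 18.5% and 20.5% at 12 h, 7.06% and 7.41% at 108 h and 10.7% and 10.8% at 120 h.

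**Figure D4:**
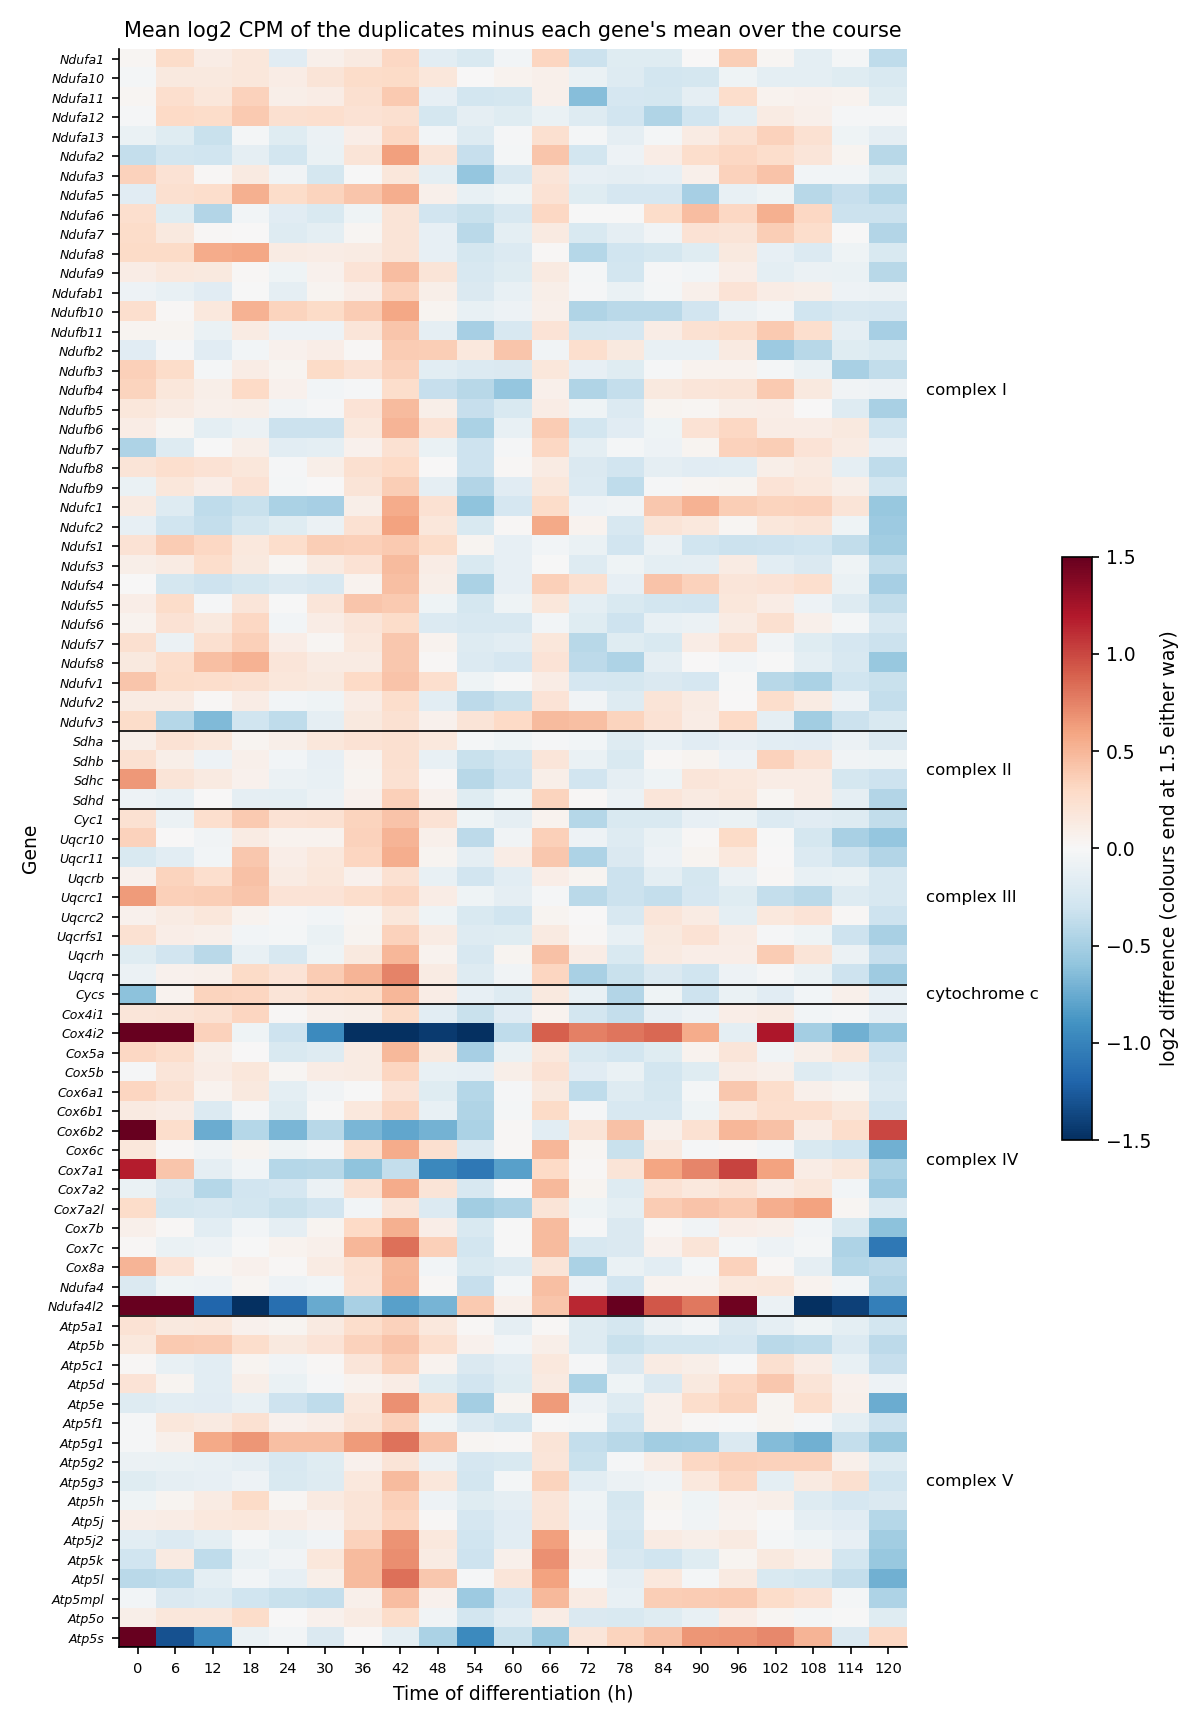
Mean log2 CPM of the duplicates minus each gene's own mean over the course (colour, ending at 1.5 log2 units either way), with the genes named in the plot as horizontal lines grouped by complex and time of differentiation in hours across. Most genes share high values at 42 h, which carry the high library of replicate B, and low values at 54 and 120 h. Ndufa4l2, Cox4i2, Cox6b2, Cox7a1 and Atp5s follow courses of their own. Ndufv3 and Ndufb2 also had low correlations with the median course.

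Some genes passed the test for any change without standing out in a single comparison. Ndufv3, an accessory subunit of complex I that sits by the NADH site, was at 6.35 and 6.32 log2 CPM at 0 h and 5.40 and 5.40 at 12 h, where its mean was lowest. Ndufa6, another accessory subunit, behaved alike, at 6.18 and 6.05, then 5.31 and 5.53, also lowest at 12 h. In both genes the 12 h values lay below both 0 h values. Ndufb11, from the membrane arm, was at 5.93 and 6.13 at 0 h, 6.09 and 6.72 at 42 h, 5.51 and 5.47 at 54 h, 6.34 and 6.43 at 102 h, 6.28 and 6.20 at 108 h and 5.44 and 5.54 at 120 h. Its mean was highest at 42 h, where the duplicates lay apart, and in both replicates it was higher at 102 and 108 h than at 54 and 120 h. Uqcrh, the hinge subunit of complex III, was at 6.65 and 6.57 at 12 h, 7.43 and 7.37 at 102 h and 6.68 and 6.67 at 120 h. Cox7c, which was not called for any change, spread widely at 42 h, with 7.10 and 8.08, and was lowest at 120 h, with 5.72 and 5.65.

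Complex IV holds most of the subunits with alternative isoforms. The ranges of Ndufa4, Cox4i1, Cox6b1 and Cox7a2, the common forms, were 0.93, 0.68, 0.77 and 1.10 log2 units, each smaller than that of its alternative form given above. Ndufa4l2 (chr10:127514967-127517154, plus strand, GRCm38) is a paralog of Ndufa4, a subunit first placed in complex I and now in complex IV, and is known as a gene induced by low oxygen. Its values traced a fall, a return and another fall. From 4.23 and 4.36 log2 CPM at 6 h it went to 1.58 and 1.29 at 12 h, back to 3.87 and 4.44 at 78 h and 3.97 and 4.21 at 96 h, and down to 2.25 and 2.84 at 102 h and 0.45 and 0.53 at 108 h, where it had 46 and 40 reads. The largest distance between its duplicates at any time was 0.81 log2 units. Ndufa4l2 was also the only one of the 83 genes called in a 6 h step other than the first one, lower from 6 to 12 h (4.35% of all genes called) and lower from 102 to 108 h (2.04%). From 96 to 120 h it fell by 2.48 (adjusted p = 4.19e-08).

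Ndufa4 itself was at 6.84 and 6.98 log2 CPM at 0 h, 7.08 and 7.04 at 12 h, 7.29 and 7.96 at 42 h, where its mean was highest, and 6.64 and 6.76 at 120 h. Of the CPM per kb of the pair, Ndufa4l2 made up 35.2% and 33.2% at 0 h, 15.7% and 15.4% at 6 h, 2.72% and 2.3% at 12 h, 13.5% and 19.7% at 78 h, 1.12% and 1.28% at 108 h and 3.65% and 3.51% at 120 h. Exons of Ndufa4l2 share 32 bases, 2.92% of its exon bases, with Shmt2 on the opposite strand.

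Cox4i2 (chr2:152754173-152765037, plus strand) is the lung-enriched form of Cox4i1 and is also induced by low oxygen. It was at 1.36 and 1.86 log2 CPM at 0 h, from 60 and 87 reads, at -1.21 and -1.30 at 24 h, from 15 and 11 reads, and at -2.81 and -2.73 at 36 h, from 4 reads in each. By 72 h it was at -0.17 and -0.20, and at 120 h at -1.14 and -1.90, from 12 and 6 reads. The change over all time points passed 0.0001, but the difference of -2.87 between 24 h and 0 h (adjusted p = 0.0003) and that of -3.13 between 120 h and 0 h did not. Cox4i1 stayed between 8.40 and 9.42 log2 CPM, from 9.05 and 9.12 at 0 h to 8.71 and 8.85 at 120 h, and Cox4i2 made up 0.945% and 1.26% of the pair per kb at 0 h, its highest share, and 0.212% and 0.115% at 120 h.

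Cox6b2 (chr7:4751792-4753094, minus strand) had a correlation of -0.36 with the median course. After its fall in the first 12 h, to 4.13 and 4.07 log2 CPM, it was at 3.78 and 4.35 at 42 h, 4.90 and 4.99 at 108 h and 5.87 and 5.81 at 120 h. It was the only member called higher in the late than in the early mean, by 1.10 ± 0.09 (SE, adjusted p = 8.09e-12). At 120 h it was still -0.54 from its 0 h level (adjusted p = 0.0122). Cox6b1, the common form, was at 7.18 and 7.26 at 0 h and 6.84 and 6.74 at 120 h. The share of Cox6b2 in the pair per kb was 26% and 26.6% at 0 h, 5.93% and 5.95% at 42 h, 10.6% and 11.2% at 108 h and 24.5% and 25.1% at 120 h, so the undifferentiated share was nearly reached again.

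Cox7a1 (chr7:30184144-30186078, plus strand) lay below its usual form Cox7a2 per length at every time. It stood at 0.35 and 0.41 log2 CPM at 48 h and 2.48 and 2.24 at 96 h, between 2.46 and 2.59 at 0 h and 0.90 and 0.85 at 120 h, and its duplicates at 42 h, 0.36 and 1.64, lay further apart than the change from 24 h. Cox7a2 was at 6.24 and 6.45 at 0 h and 5.84 and 5.97 at 120 h. Cox7a2l, a related factor that joins complexes III and IV into supercomplexes, was at 7.04 and 7.21 at 0 h, 6.52 and 6.65 at 6 h, 7.49 and 7.41 at 108 h and 6.72 and 6.57 at 120 h. Its change over all time points passed 0.0001. Atp5s (chr12:69724950-69744660, plus strand) came back only in part after its drop, with 2.28 and 2.27 at 24 h and 2.69 and 2.59 at 120 h, a difference of -1.20 from 0 h (adjusted p = 0.0002).

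**Figure D5:**
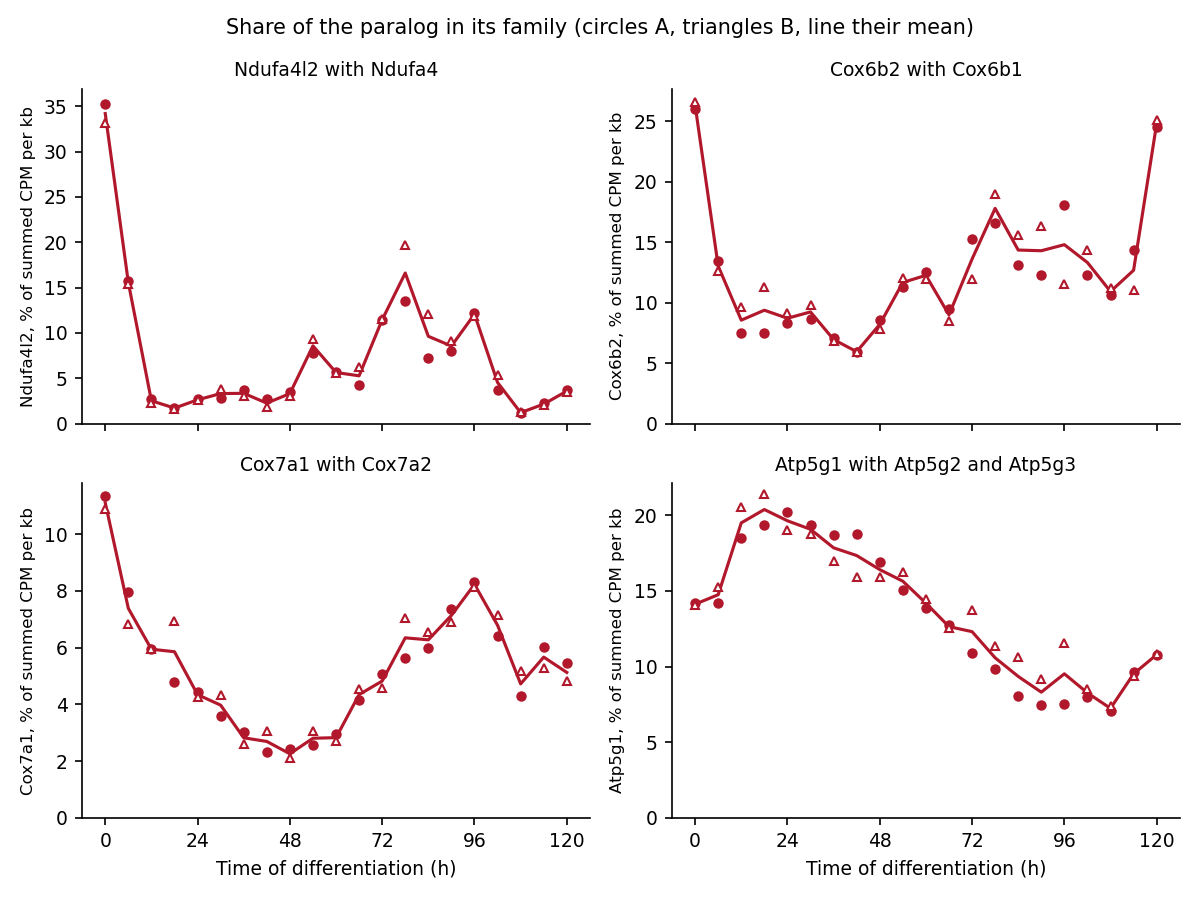
Share of Ndufa4l2, Cox6b2, Cox7a1 and Atp5g1 in the summed CPM per kb of their families (vertical axis, percent) against time of differentiation in hours. Circles are replicate A, triangles replicate B and the line their mean. Ndufa4l2 went from 35.2% and 33.2% at 0 h to 1.12% and 1.28% at 108 h, whereas Cox6b2 was at 26% and 26.6% at 0 h and at 24.5% and 25.1% at 120 h.

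Promoters of respiratory genes are known for sites of the factors NRF1, GABP of the ETS family, YY1 and the estrogen-related receptors. RefSeq promoter windows on GRCm38.p6, from 250 bases before to 50 bases after the start of a gene, were found for 68 of the 83 genes. Each motif was searched by its letters on both strands. GCGCATGC (NRF1) was in 11 windows (16.2%) and in 2.8% of 27025 promoters, AAGATGGCG (YY1) in 6 (8.82% against 1.49%), CCGGAAGT (ETS) in 5 (7.35% against 4%) and TCAAGGTCA (estrogen-related receptors) in 2 (2.94% against 0.407%), Atp5g3 and Sdhd. Of the general promoter letters, GGGCGG (Sp1) was in 29 (42.6% against 35.9%) and CCAAT in 30 (44.1% against 37.9%). A match of letters is a description and not a bound site. The 27025 promoters were not limited to genes measured here, with the first listed window taken for each gene. For members the window nearest the annotated start was taken, so the shares are not fully alike. The 250 bases before the start are shown for 6 genes whose courses are described here, read 5′ to 3′ along the strand of the gene, with matches to any of the motifs in capitals. Cycs (chr6:50566570-50566819, minus strand) and Atp5l (chr9:44920743-44920992, minus strand) hold the NRF1 letters. The pairs of common and alternative forms are Cox6b1 (chr7:30626115-30626364, minus strand) with Cox6b2 (chr7:4753095-4753344, minus strand), and Cox7a2 (chr9:79759854-79760103, minus strand) with Cox7a1 (chr7:30183921-30184170, plus strand).
Cycs: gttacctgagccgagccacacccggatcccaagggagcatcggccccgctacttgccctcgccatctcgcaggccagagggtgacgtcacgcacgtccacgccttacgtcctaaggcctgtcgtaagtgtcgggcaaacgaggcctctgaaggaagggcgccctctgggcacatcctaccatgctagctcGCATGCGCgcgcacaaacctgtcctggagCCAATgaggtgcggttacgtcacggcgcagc
Atp5l: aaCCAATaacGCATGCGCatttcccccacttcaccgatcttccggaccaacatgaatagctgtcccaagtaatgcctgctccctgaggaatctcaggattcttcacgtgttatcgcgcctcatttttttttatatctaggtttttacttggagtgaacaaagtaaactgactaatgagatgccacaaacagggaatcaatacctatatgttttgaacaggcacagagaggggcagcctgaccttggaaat
Cox6b1: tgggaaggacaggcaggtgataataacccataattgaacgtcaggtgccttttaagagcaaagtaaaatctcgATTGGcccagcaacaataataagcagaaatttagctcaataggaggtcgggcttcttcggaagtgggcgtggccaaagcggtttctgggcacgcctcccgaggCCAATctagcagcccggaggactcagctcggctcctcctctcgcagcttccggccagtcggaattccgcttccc
Cox6b2: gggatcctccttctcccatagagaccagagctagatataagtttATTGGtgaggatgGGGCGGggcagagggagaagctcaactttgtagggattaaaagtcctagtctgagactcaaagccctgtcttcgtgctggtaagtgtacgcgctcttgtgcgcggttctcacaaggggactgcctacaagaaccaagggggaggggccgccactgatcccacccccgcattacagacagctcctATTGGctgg
Cox7a2: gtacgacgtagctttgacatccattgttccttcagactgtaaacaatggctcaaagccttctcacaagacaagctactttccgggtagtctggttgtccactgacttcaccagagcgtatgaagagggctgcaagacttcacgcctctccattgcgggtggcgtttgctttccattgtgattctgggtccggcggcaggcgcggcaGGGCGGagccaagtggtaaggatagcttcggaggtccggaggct
Cox7a1: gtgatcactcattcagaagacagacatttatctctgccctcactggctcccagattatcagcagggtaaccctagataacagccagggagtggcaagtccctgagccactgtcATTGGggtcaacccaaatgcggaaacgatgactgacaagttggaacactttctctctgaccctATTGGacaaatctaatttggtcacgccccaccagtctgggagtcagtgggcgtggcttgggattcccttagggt

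In these windows the NRF1 letters lay from -60 to -53 for Cycs and from -240 to -233 for Atp5l, counted back from the start. Both also hold CCAAT, from -31 to -27 and from -248 to -244. The NRF1, ETS, YY1 and receptor letters were in none of the 4 Cox windows shown. Those of Cox6b1, Cox6b2 and Cox7a1 hold CCAAT at 2 places each, on one strand or the other, and those of Cox6b2 and Cox7a2 hold GGGCGG at 1 place each. The 11 genes with the NRF1 letters had a median change of 0.01 from 0 to 6 h and -0.29 from 0 to 120 h, and the 57 without them had -0.04 and -0.47, differences that were not tested.

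Transcripts made in the mitochondria were measured as well. Of 12 measured subunits encoded in mitochondrial DNA, 1 rose from 0 to 6 h (11.8% of all genes), mt-Nd3, a membrane subunit of complex I, from 8.11 and 7.89 to 9.04 and 9.07 log2 CPM, by 1.05 (adjusted p = 6.18e-05). The median of the 12 was 0.77 at 6 h, when that of the nuclear genes was -0.03, and 0.09 at 120 h, when it was -0.46. mt-Cytb of complex III went from 11.23 and 10.99 to 12.31 and 12.38 at 6 h and was at 10.75 and 12.59 at 96 h, where the duplicates lay far apart. mt-Co1, the catalytic subunit of complex IV, was at 14.12 and 14.03 at 0 h and 13.93 and 14.23 at 120 h. Over the whole course, 1 of the 12 was called for any change, where 74.6% of all genes were.

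Other proteins of the same organelle were counted from lists of known members. The mitochondrial ribosome makes the subunits encoded in mitochondrial DNA, and its 76 nuclear genes had a median of 0.27 at 24 h against 0 h, with 7 that rose, where 9.9% of all genes did. Late against early, 51 of the 76 fell and 1 rose (27.5% and 30.6% of all genes), with a median of -0.52, set against 24 of 83 and -0.22 for the oxidative phosphorylation genes. No test compared these lists. Over 42 libraries, the median of the 83 genes had a correlation of 0.75 with that of the mitochondrial ribosomal genes, 0.57 with that of the cytosolic ribosomal genes and 0.10 with that of the mitochondrial DNA, as a description of libraries that share their depth and scaling. The 79 cytosolic ribosomal protein genes had 5 that rose and 3 that fell late against early, beside the same 30.6% and 27.5% of all genes, with a median of 0.16.

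Assembly factors build the complexes without being part of them. Of 47 measured, 5 rose from 0 to 6 h, where 11.8% of all genes rose, so the count was near that background. They were Coa7 (1.02), Coa4 (0.99) and Sco1 (0.75), which act on complex IV, and Ndufaf4 (0.77) and Foxred1 (0.55), which act on complex I. Coa7 remained higher at 24 h (1.29) and 120 h (0.74). Cox17, the copper chaperone of complex IV, fell by 1.25 by 24 h, from 3.27 and 3.28 to 1.99 and 2.06 log2 CPM, and was back at 3.23 and 3.07 at 120 h. Ecsit, which takes part in the assembly of complex I, fell by 1.04 at 120 h against 0 h, and Sdhaf2, which attaches FAD to Sdha, rose by 0.73 at 24 h.

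Among 27 regulators of mitochondrial gene expression, 7 rose and 1 fell from 0 to 6 h, where 11.8% of all genes rose and 14.5% fell. Nrf1, the factor of the GCGCATGC letters, went from 5.88 and 5.84 to 6.89 and 6.83 log2 CPM, a rise of 0.999 ± 0.076 (SE, adjusted p = 2.35e-11). Gabpa (0.66), Yy1 (0.64), Mterf3 (0.72), the helicase gene Twnk (0.53) and Hif1a (1.25) rose too, and Myc, a broad activator of growth genes, went from 4.55 and 4.43 to 7.57 and 7.71, by 3.15. Esrra, an estrogen-related receptor, fell by 0.87 and was still lower at 24 h, by -0.93, whereas Myc (2.91), Hif1a (1.44), Yy1 (0.75) and Nrf1 (0.72) were still higher. By 120 h Hif1a was higher than at 0 h (0.98), and Esrrb (-1.12) and Mterf2 (-0.82) lower. Late against early, 18 of the 27 fell and 2 rose (27.5% and 30.6% of all genes), with a median of -0.47.

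Most of the enzymes and carriers that supply the chain were lower at 120 h than at 0 h. Of 17 enzyme genes, 15 were lower, with a median of -0.32, and 3 were called lower (10.1% of all genes). Of 14 measured carriers and inner membrane proteins, 13 were lower, with a median of -0.50. There, 2 were called lower and 1 higher (12.9% of all genes). Of 17 genes of pyruvate dehydrogenase and the citric acid cycle, Pdhb rose by 0.65 from 0 to 6 h, and Idh3g (-0.71) and Idh3b (-0.48), which belong to the NADH-making isocitrate dehydrogenase, fell at 120 h against 0 h. Among 14 measured carriers and inner membrane proteins, Slc25a4, the heart and muscle ADP/ATP carrier, was called higher at 120 h, with values from 6.44 and 6.49 log2 CPM at 0 h to 6.80 and 6.93 at 24 h, 7.19 and 7.40 at 48 h, 7.57 and 7.89 at 96 h and 8.27 and 8.16 at 120 h, a rise of 1.75 ± 0.14 (SE, adjusted p = 2.82e-11). Ucp2, an uncoupling protein homolog, fell by 1.64 at 24 h and was -0.84 from 0 h at 120 h, and Higd2a, a supercomplex factor, fell by 1.02 and by 1.41.

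Glycolysis, the other route to ATP, was measured by 22 genes, and 21 were called for any change, where 74.6% of all genes were. From 0 to 6 h, 8 fell (14.5% of all genes), with a median of -0.49. Hk1, the first enzyme of the route, went from 7.36 and 7.20 to 5.96 and 5.97 log2 CPM and Pfkp, a phosphofructokinase, from 8.96 and 8.87 to 7.34 and 7.22. At 24 h, 9 were lower than at 0 h (12.8% of all genes) and 1 higher, Eno3 (1.29), the muscle enolase. At 120 h, 6 were lower (10.1% of all genes), with Aldoc at -2.57, Pfkp at -2.54, Hk1 at -1.28, the kinase Pdk1, which holds pyruvate back from the mitochondrion, at -1.21, Pfkl at -0.87 and Ldha at -0.69, and Eno3 was higher by 1.75. Ldha, which makes lactate, went from 9.72 and 9.74 at 6 h to 11.23 and 11.28 at 48 h and 9.38 and 9.42 at 108 h, times at which Ndufa4l2 stood at 4.23 and 4.36, 1.92 and 1.96, and 0.45 and 0.53. At these times both genes were lowest at 108 h, and Ldha was highest at 48 h.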

How the data were processed

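Reads were trimmed (Trim Galore), mapped to mm10 (TopHat2) and counted on GENCODE vM2 genes (HTSeq) by the authors, who then kept genes above 1 CPM in at least 2 samples and normalized with edgeR and limma's voom; tool versions, and whether counting used strand, were not given in the sources used here. The values deposited by the authors are log2 CPM, 1 file per library. They mapped to whole reads within 2.91e-08, which gave the depth. Of 14296 gene identifiers, 14177 matched GENCODE vM21 on GRCm38, which gave symbols, exon lengths and coordinates, and 119 did not. Samples were grouped by the time and letter in their labels.

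The log2 values were fitted with limma 3.58.1 in R 4.3.3 (lmFit, eBayes with a trend, a factor of 21 time points, 42 libraries, 21 residual degrees of freedom), with Benjamini-Hochberg adjustment over all genes within each comparison. No test was run over a list. Python 3.11.15, pandas 2.3.3, numpy 2.4.6 and matplotlib 3.10.9 served for summaries. The fit was tested on simulated data. The duplicates are described as biological, and p-values measure the spread between them.

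The members and the gene lists were chosen with earlier results of these data known. Named with values were the 3 largest rises and falls called in each comparison with the same sign in both replicates, the 5 widest and narrowest ranges, the 5 highest and lowest levels per length, complex II, cytochrome c, the paralog families, and list genes called at 6, 24 or 120 h against 0 h. The other called members, those named only for a change over the course, and the further values of mt-Cytb, mt-Co1, Cyct and Ldha were added after their values were seen. Alternatives were recentring on the median gene, filters on the mean at 0 and 4 log2 CPM, log2(CPM + 1), voom weights, a replicate block and leaving out each library. Results of some genes are not reported here.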

Additional observations from a re-analysis of the deposited data

How the results depend on the processing

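Under the threshold of 0.05 in place of 0.0001, the members called numbered 12 (6 against 0 h), 5 (24 against 6 h), 15 (24 against 0 h), 2 (48 against 24 h), 22 (72 against 48 h), 15 (96 against 72 h), 32 (120 against 96 h), 22 (120 against 108 h), 44 (120 against 0 h), 51 (late against early) and 70 (any change). With only genes of a mean of at least 4 log2 CPM they numbered 1 (6 against 0 h), 0 (24 against 6 h), 1 (24 against 0 h), 0 (72 against 48 h) and 0 (120 against 96 h), because Ndufa4l2, Cox7a1 and Atp5s lie below that mean. On log2(CPM + 1), 2 were called from 6 to 24 h, and with libraries recentred on their median gene 2 from 48 to 72 h. The early mean of 24 to 36 h, chosen after seeing the data, gave 16. The late mean of 102 to 114 h, also chosen after seeing the data, lost some calls, among them Cox7c and Ndufs8. With the replicate block the counts were 2 (24 against 6 h), 5 (72 against 48 h), 1 (96 against 72 h), 14 (120 against 0 h) and 41 (any change), and 44 under 0.05 from 96 to 120 h; its other counts stayed within 1.5 times. Same-letter residuals correlated at 0.0795 on average across 210 pairings of time points (-0.474 to 0.598, 47.1% over 0.1), so the letters were not taken as pairing. Leaving out 1 library gave 2 to 2 calls (6 against 0 h), 1 to 1 (24 against 6 h), 2 to 2 (24 against 0 h), 0 to 0 (48 against 24 h and 120 against 108 h), 0 to 2 (72 against 48 h), 0 to 1 (96 against 72 h), 1 to 2 (120 against 96 h), 4 to 5 (120 against 0 h), 20 to 31 (late against early) and 21 to 45 (any change), and under 0.05 from 7 to 42 (120 against 96 h) and 28 to 40 (120 against 0 h). Otherwise the cause was not tested. Of 43 named calls, 25 were kept under every alternative run for them and 0 reversed. Depth limited Cox4i2, with 4 reads in each library at 36 h.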
